A study of Mus musculus with 2 samples.

Results

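The MiT/TFE genes are the 4 mouse genes Tfeb, Tfe3, Tfec and Mitf, taken by symbol from the 32285 genes of the deposited matrix. They were selected on their levels across the cell classes below, which were already known, so those levels are given as a description and carry no test. The nuclei came from mouse liver with hepatocellular carcinoma (HCC), where an area holding minimal residual disease was dissected, frozen and used for single-nucleus RNA sequencing with a 3′ droplet kit. The 2 samples, MRD-HCC 1 and MRD-HCC 2, have the same labels, and strain, age and any treatment are not given in the sources used here. Their barcodes stand in a pooled matrix with no map from barcode to sample, so the data are 1 sample: there is no replicate check, and nuclei are not replicates.

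MiT/TFE proteins are basic helix-loop-helix leucine-zipper transcription factors that bind E-box DNA as dimers. TFEB and TFE3 switch on genes of lysosomes and autophagy, MITF is the central regulator of pigment cells and also acts in osteoclasts and mast cells, and Tfec is known in mouse mainly from macrophages. When nutrients are ample, the kinase mTORC1 phosphorylates TFEB and TFE3 at the lysosome, where the Rag GTPases and the FLCN-FNIP complex present them, and 14-3-3 proteins then hold them in the cytoplasm. This control acts on the proteins, which RNA counts do not show.

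The deposited filtered matrix held 17169 barcodes and 95130408 unique molecular identifiers (UMIs, counted RNA molecules), with 891 to 125991 UMIs per barcode and a median of 2794. Of these barcodes 16411 passed the filters, and 7251 of them fell into 12 classes by marker genes. A nucleus entered a class when it held at least 3 of its markers above the level of free RNA, the loose RNA found in droplets without a nucleus. The tumour-side classes were 1959 Pkhd1-high nuclei, named for the fibrocystin gene, and 442 HCC-like nuclei; 1149 cholangiocyte-like and 1418 hepatocyte-like nuclei were the other epithelial classes. There were 74 Kupffer-like, 182 macrophage-like, 87 T cell-like, 753 endothelial-like, 591 stellate-like, 312 fibroblast-like, 186 smooth muscle- or pericyte-like and 98 mesothelial-like nuclei. Of the markers of each class, 9 of 11 peaked in Pkhd1-high nuclei, 10 of 11 in HCC-like nuclei, 11 of 13 in cholangiocyte-like nuclei, 8 of 8 in Kupffer-like nuclei and 12 of 15 in macrophage-like nuclei. In hepatocyte-like nuclei 7 of 12 did, and the marker sum was 14638 CPM (UMIs of a gene per 1000000 UMIs), below the 43233 CPM of free RNA. The same markers made the gates, so these counts follow in part from the gating and do not test the class names. Free RNA came from 49929 uncalled barcodes of 500 to under 850 UMIs, and by haemoglobin counts it made up 14.3% of Pkhd1-high, 17.9% of HCC-like, 21.3% of cholangiocyte-like, 29.3% of Kupffer-like, 46.5% of macrophage-like and 8.63% of hepatocyte-like RNA.

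Tfeb was the member that most set tumour-side and cholangiocyte-like nuclei apart from hepatocyte-like nuclei. It lies on chromosome 17 (mm10, 47737030 to 47792419, plus strand, ENSMUSG00000023990), and no other gene of the files overlaps it. In summed UMIs its level was 2208 CPM in Pkhd1-high nuclei (exact 95% Poisson interval 2186 to 2231), 1256 CPM (1218 to 1295) in HCC-like nuclei and 866 CPM (842 to 891) in cholangiocyte-like nuclei, against 94.98 CPM in hepatocyte-like nuclei (91.2 to 98.9). These and all later intervals cover counting error only. Free RNA held 229.7 CPM of Tfeb, so the 3 high classes lay above it and hepatocyte-like nuclei lay below it.

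The fold over hepatocyte-like nuclei was 23.3 (interval 22.3 to 24.2) for Tfeb in Pkhd1-high nuclei, from 37650 and 2363 UMIs. The Tfeb fold was 13.2 (12.6 to 13.9) in HCC-like nuclei and 9.12 (8.68 to 9.59) in cholangiocyte-like nuclei. Pkhd1-high nuclei were also above HCC-like nuclei, by 1.76-fold (1.70 to 1.82), and HCC-like above cholangiocyte-like nuclei, by 1.45-fold (1.39 to 1.51). Cholangiocyte-like nuclei carried 5437 CPM of the 11 Pkhd1-high markers, against 275 CPM in hepatocyte-like nuclei. Without Pkhd1, which both gates hold, the other 10 markers summed to 1185 CPM in cholangiocyte-like nuclei, against 117 CPM in hepatocyte-like nuclei. The part of this in the Tfeb level was not tested.

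Among the other classes Tfeb came next in T cell-like nuclei, at 665 CPM (578 to 762), and in Kupffer-like nuclei, the resident macrophages of liver, at 443 CPM (384 to 509). Macrophage-like nuclei held 212 CPM and mesothelial-like nuclei 173 CPM, which did not differ beyond their intervals and were not above free RNA. Stellate-like nuclei at 141 CPM and endothelial-like nuclei at 139 CPM did not differ either. Fibroblast-like nuclei at 76.7 CPM and smooth muscle- or pericyte-like nuclei at 60.7 CPM ended the order, below hepatocyte-like nuclei. The T cell-like nuclei carried 543 CPM of Pkhd1-high markers and 42.9% free RNA, and Kupffer-like nuclei 602 CPM of these markers and 29.3% free RNA. In barcodes of 1 to 100 UMIs free RNA held 487 CPM of Tfeb, above the Kupffer-like level. The part of these in the Tfeb levels was not tested. Of the 50 T cell-like nuclei with at least 2000 UMIs, 26 had no Tfeb UMI.

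**Figure D1:**
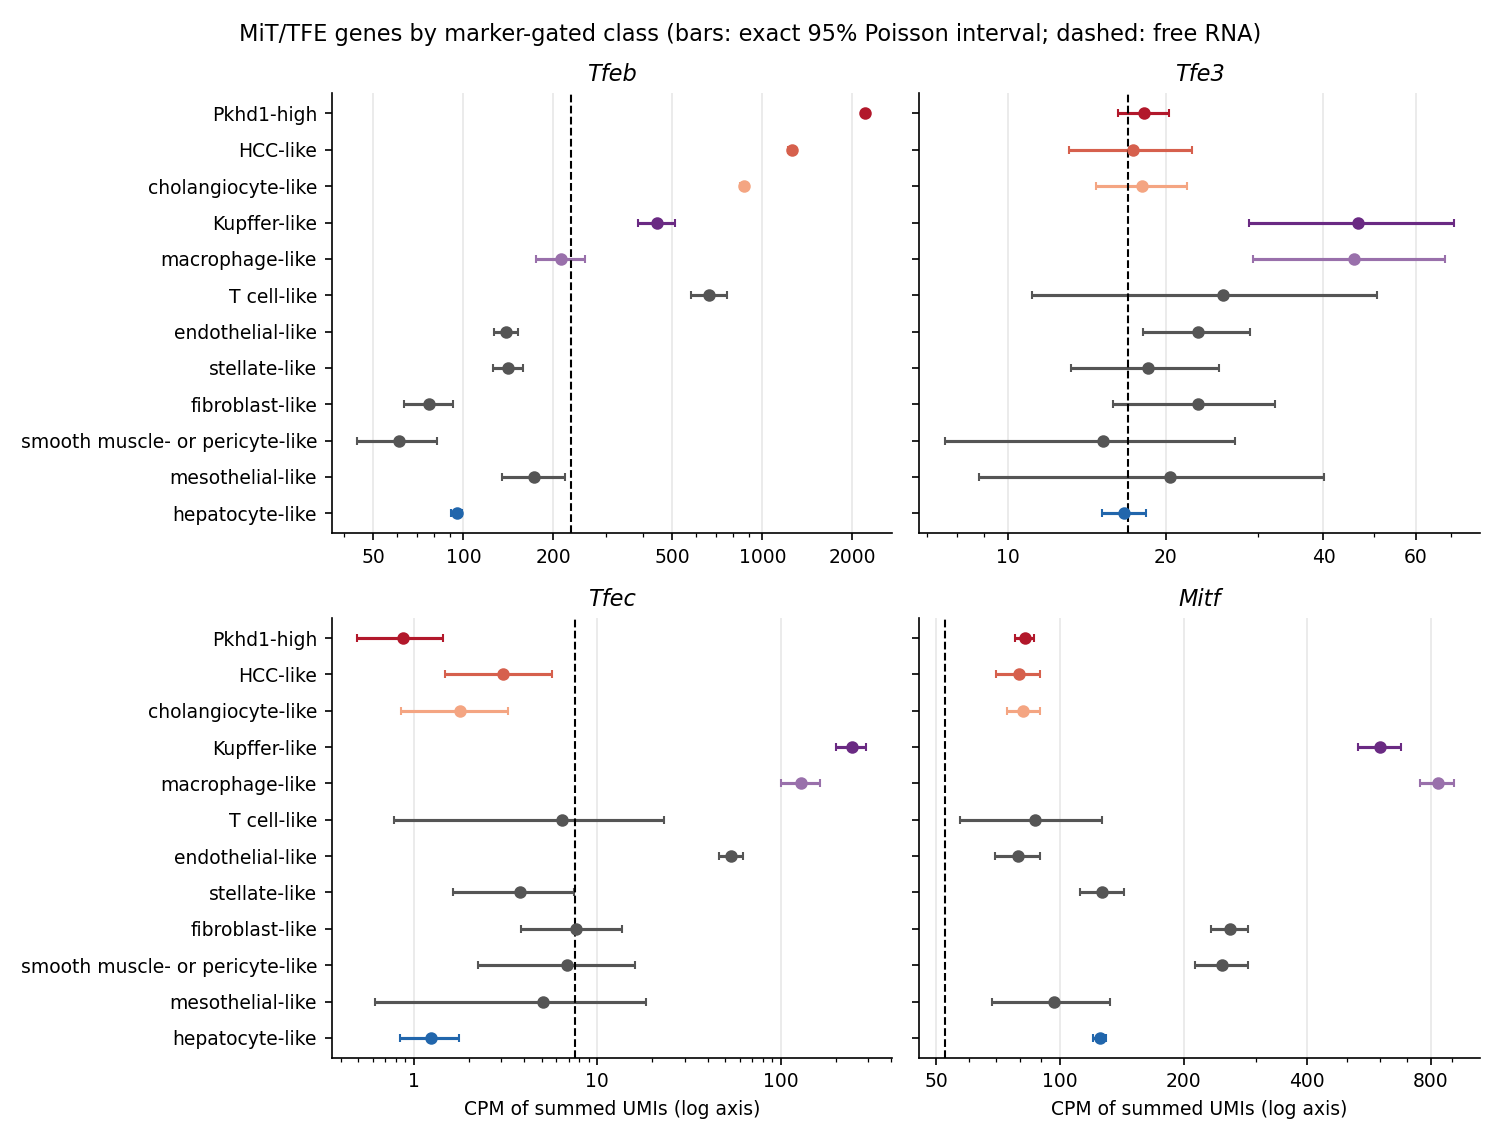
Level of each MiT/TFE gene in 12 marker-gated classes of nuclei, in CPM of summed UMIs on a log axis; points are class levels, bars the exact 95% Poisson interval, and the dashed line is free RNA. Tfeb stands at 2208 CPM in Pkhd1-high nuclei and at 94.98 CPM in hepatocyte-like nuclei, while Tfe3, Tfec and Mitf have their 2 highest classes among Kupffer-like and macrophage-like nuclei.

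Nearly every Pkhd1-high nucleus had Tfeb RNA. With each nucleus thinned to 1000 UMIs, 80.7% of Pkhd1-high nuclei had a Tfeb UMI (exact Clopper-Pearson interval 78.8 to 82.4), 61.7% of HCC-like nuclei did, 42.2% of cholangiocyte-like nuclei and 8.83% of hepatocyte-like nuclei. Without thinning the shares were 98.0% in Pkhd1-high nuclei, at a median of 7473 UMIs, and 53.5% in hepatocyte-like nuclei, at a median of 15519 UMIs. Thinned to 500 UMIs, so that free RNA droplets could be included, the share was 59.0% in Pkhd1-high nuclei, 4.02% in hepatocyte-like nuclei and 10.7% in free RNA droplets.

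The spread within classes was wide. Among nuclei with at least 2000 UMIs, the median was 19.8 Tfeb UMIs per 10000 UMIs in Pkhd1-high nuclei (5th to 95th percentile 5.22 to 46.1), 9.88 in HCC-like nuclei (1.19 to 37.0), 4.76 in cholangiocyte-like nuclei (0 to 25.8) and 0.383 in hepatocyte-like nuclei (0 to 4.62). Only 11 of 1886 such Pkhd1-high nuclei (0.583%) had no Tfeb UMI, against 45.1% of hepatocyte-like nuclei. The lowest Pkhd1-high nuclei thus overlapped the highest hepatocyte-like ones, and cholangiocyte-like nuclei ran from none to levels of the Pkhd1-high median and above. The 5th percentile of Pkhd1-high nuclei, 5.22, lay above the 95th percentile of hepatocyte-like nuclei, 4.62.

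Tfeb did not stand alone on its chromosome. From Mrps10, a mitochondrial ribosome gene, to Unc5cl, a death-domain gene, over 1171 kb (47368887 to 48539714), nearly every gene with at least 100 UMIs over both classes was higher as well. The stretch was marked out on these same folds, so its counts describe it and support nothing. In Pkhd1-high over hepatocyte-like nuclei 21 of its 23 genes other than Tfeb were at least 2-fold higher, beside 21.6% of the 13196 genes of the genome with at least 100 UMIs. Of the 23 genes 5 would not have reached 100 UMIs at the hepatocyte-like level and so entered only by being higher. The median fold of the 23 genes was 13.8 (range 1.27 to 34.98), and Tfeb ranked 3 of 24 by fold.

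Ccnd3, which encodes the cell cycle regulator cyclin D3, had 5475 CPM in Pkhd1-high nuclei and 357 CPM in hepatocyte-like nuclei, a fold of 15.4. Foxp4, a forkhead transcription factor gene, had 2487 CPM in Pkhd1-high nuclei and 153 CPM in hepatocyte-like nuclei, a fold of 16.2. Nfya, a subunit of the NF-Y transcription factor, had a fold of 18.8, Med20, a Mediator subunit, 12.5, Taf8, a TFIID subunit, 15.2, and Usp49, a deubiquitinase gene, 14.9. The genes of the stretch thus differ in known function. Mdfi, an inhibitor of myogenic factors that lies 60.3 kb from Tfeb between midpoints, had the top fold of 34.98, and Guca1a at 1.47 and 1700001C19Rik at 1.27 were the 2 genes below 2-fold.

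The stretch ended within the region. Of 25 genes with data within 1 Mb of its ends, 4 were at least 2-fold higher and 6 lower, with a median fold of 0.841. Of all genes with at least 100 UMIs, 21.6% were at least 2-fold higher, and the share that were lower was not computed. Ubr2, a ubiquitin ligase gene, was the last gene before Trerf1 on the Mrps10 side, with 178 CPM in Pkhd1-high nuclei and 259 CPM in hepatocyte-like nuclei. Trerf1, between it and Mrps10, had 100 UMIs in Pkhd1-high nuclei and 66 in hepatocyte-like nuclei, a fold of 2.21. Past Unc5cl, Gm49896 had a fold of 24.7 from 186 and 11 UMIs, and Mocs1, a molybdenum cofactor gene 1677 kb from Tfeb, a fold of 0.494.

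HCC-like and cholangiocyte-like nuclei showed the same stretch. In HCC-like over hepatocyte-like nuclei 19 of the 23 genes had at least 100 UMIs. Of these 2 would not have reached it at the hepatocyte-like level and so entered only by being higher. All 19 of 19 were at least 2-fold higher, beside 16.5% of 11805 genes of the genome, with a median fold of 11.6 and Tfeb at rank 7 of 20. In cholangiocyte-like over hepatocyte-like nuclei 17 of 19 were, beside 19.9% of 12296 genes, with a median of 7.80 and Tfeb at rank 8 of 20. There too 2 of the 19 genes entered only by being higher. Ccnd3 is one of the HCC-like markers, so its own level there is set by the gate; with a gate that leaves it out, chosen after the data were seen, 18 of 18 genes were at least 2-fold higher with a median of 11.9. In Kupffer-like and macrophage-like over hepatocyte-like nuclei 13 of 18 were, beside 18.8% of 11609 genes, with a median of 2.59; 1 of the 18, B430306N03Rik, is not among the 23. There the 23 genes summed to 2941 CPM, below their 3359 CPM in free RNA. With expected free RNA taken out, an unplanned setting, 11 of 18 were at least 2-fold higher, with a median of 2.65. The share of all genes in that setting was not computed. The 11 Pkhd1-high markers summed to 529 CPM in these nuclei, against 275 CPM in hepatocyte-like nuclei. The part of RNA from Pkhd1-high nuclei in this count was not tested. These 4 comparisons share the hepatocyte-like nuclei, so they are not independent.

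**Figure D2:**
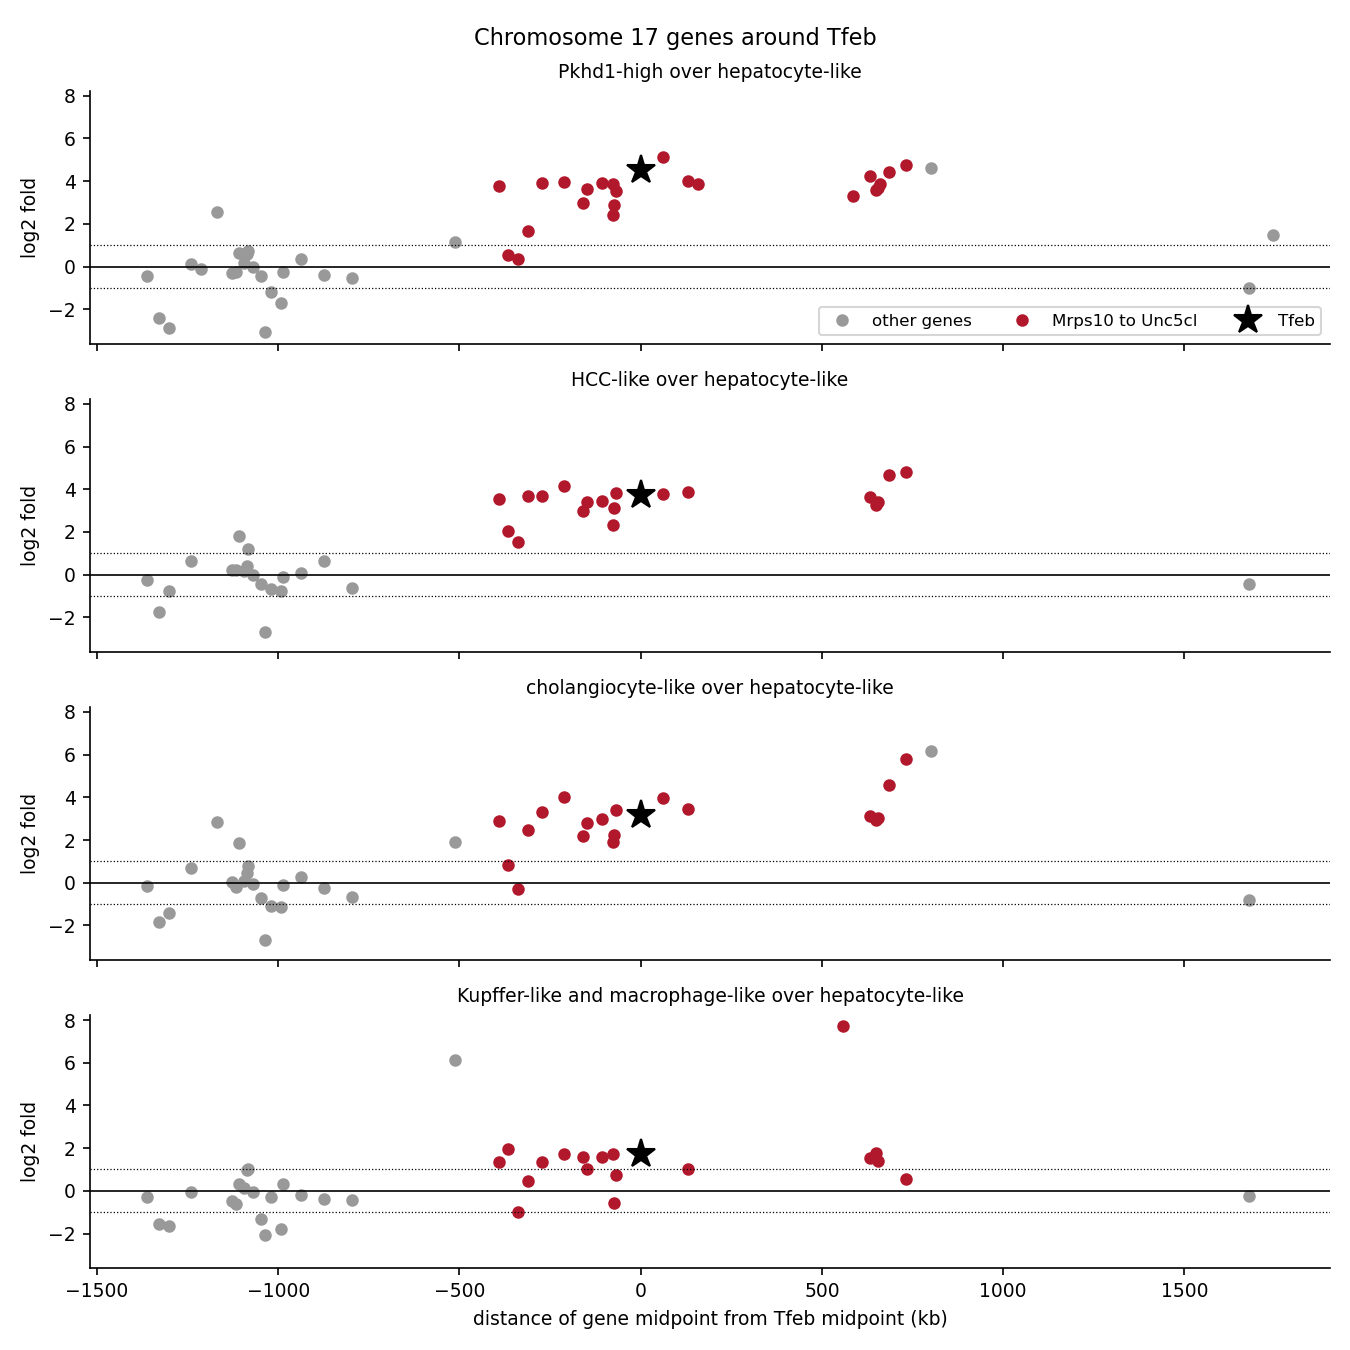
Log2 fold of each chromosome 17 gene with at least 100 UMIs over both classes, by distance of its midpoint from that of Tfeb in kb, in 4 comparisons with hepatocyte-like nuclei. Red points are the genes from Mrps10 to Unc5cl, grey points the others, the star is Tfeb and dotted lines mark 2-fold; the red points lie above 2-fold for 21 of 23 genes in Pkhd1-high nuclei.

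Summed without Tfeb, the 23 genes made up 14394 CPM in Pkhd1-high nuclei, 14418 CPM in HCC-like and 11739 CPM in cholangiocyte-like nuclei, against 1115 CPM in hepatocyte-like nuclei. Free RNA held 3359 CPM of them. Ccnd3, an HCC-like marker, is part of this sum, and the other 22 genes made up 8919 CPM in Pkhd1-high nuclei, 8158 CPM in HCC-like, 6005 CPM in cholangiocyte-like and 759 CPM in hepatocyte-like nuclei. Tfeb took 13.3% of the UMIs of the stretch and itself in Pkhd1-high nuclei (13.2 to 13.4), 8.01% in HCC-like nuclei (7.78 to 8.25), 6.87% in cholangiocyte-like nuclei (6.69 to 7.06) and 7.85% in hepatocyte-like nuclei (7.55 to 8.16). With Ccnd3 left out these shares were 19.8% in Pkhd1-high, 13.3% in HCC-like, 12.6% in cholangiocyte-like and 11.1% in hepatocyte-like nuclei. Of the 23 genes 12 peaked in Pkhd1-high nuclei, 8 in HCC-like nuclei, 1 in cholangiocyte-like nuclei and 2 in macrophage-like nuclei. In single nuclei the sum had a median of 138 UMIs per 10000 in Pkhd1-high nuclei (5th to 95th percentile 73.1 to 258) and 139.8 in HCC-like nuclei (59.0 to 259), against 6.63 in hepatocyte-like nuclei (3.14 to 58.5).

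**Figure D3:**
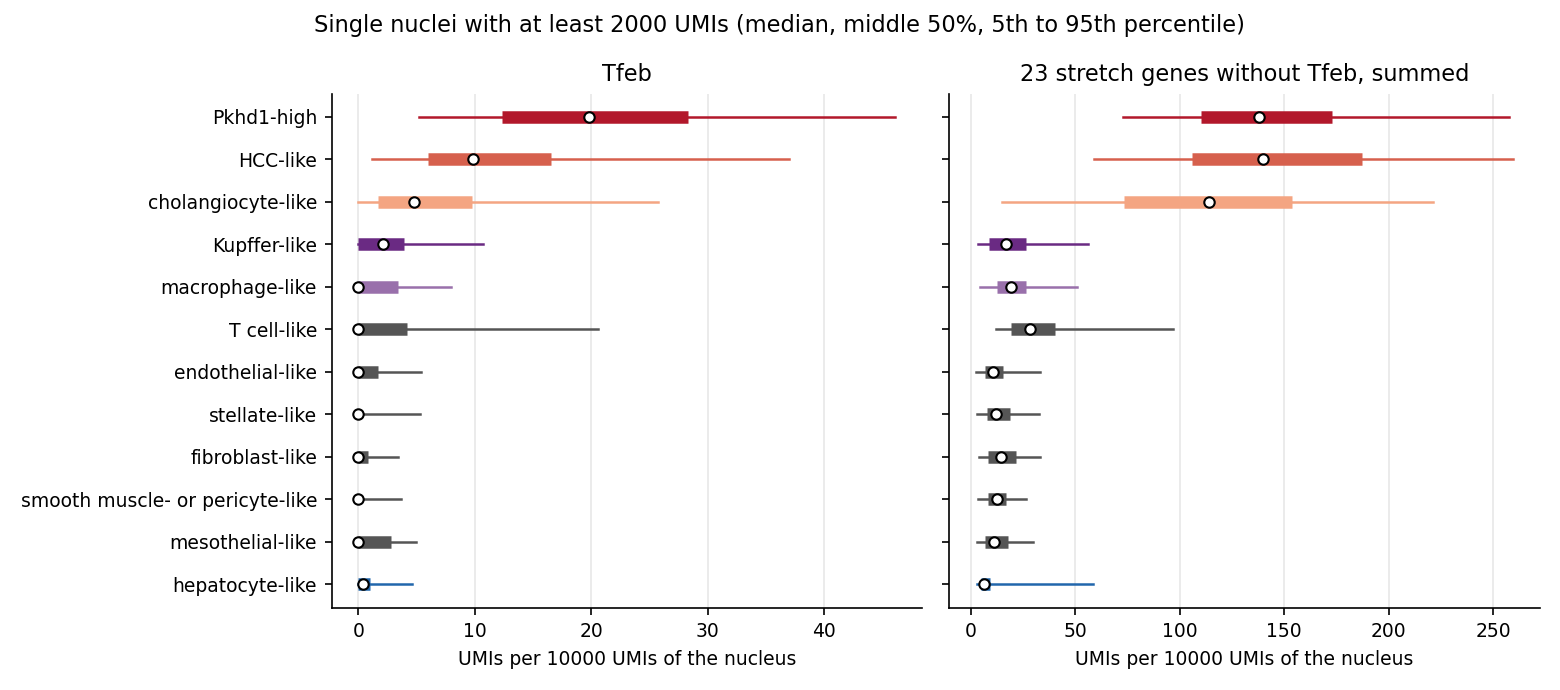
Tfeb (left) and the 23 stretch genes without Tfeb (right) in single nuclei with at least 2000 UMIs, in UMIs per 10000 UMIs of the nucleus, by class. Dots are medians, thick bars the middle 50% of nuclei and thin lines the 5th to 95th percentile; the medians of Tfeb are 19.8 in Pkhd1-high, 9.88 in HCC-like, and 0.383 among hepatocyte-like nuclei, while those of the stretch are 138 in Pkhd1-high, 139.8 in HCC-like, and 6.63 among hepatocyte-like nuclei.

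Neighbours were then scanned along the genome on the same folds that marked out the stretch, so this describes the stretch and supports nothing. For each gene with at least 8 tested neighbours within 500 kb, the median fold of those neighbours was taken. Windows of nearby genes overlap, so genes counted at the same place are not separate runs. Of single genes with at least 100 UMIs, 11% were at least 4-fold higher in Pkhd1-high, 5.91% in HCC-like, 8.62% in cholangiocyte-like and 7.43% in Kupffer-like and macrophage-like over hepatocyte-like nuclei. These are shares of single genes and not a background for neighbour medians. In Pkhd1-high over hepatocyte-like nuclei 51 of 7939 such genes had a neighbour median of 4-fold or more, of which 22 lay within 1500 kb of Tfeb and 29 elsewhere. In HCC-like over hepatocyte-like nuclei 15 of 6525 did and in cholangiocyte-like over hepatocyte-like nuclei 16 of 6965, all of them within 1500 kb of Tfeb. In Kupffer-like and macrophage-like over hepatocyte-like nuclei 25 of 6330 did, none of them near Tfeb. The other 3 members had no such neighbourhood, since their neighbours within 1 Mb had a median fold in Pkhd1-high over hepatocyte-like nuclei of 0.942 for Tfe3, 1.36 for Tfec and 1.01 for Mitf, against 10.6 for Tfeb. What sets the genes around Tfeb high together was not tested.

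Within Pkhd1-high nuclei Tfeb varied little between subgroups. It had 2503 CPM in the 260 nuclei that held Zfp804a or Hmga2 and 2100.2 CPM in the 1214 nuclei that held Kcnj16, Slc8a3 or Grm3, a ratio of 1.19 (1.16 to 1.23). Nuclei with division markers had 2395 CPM of Tfeb and those without 2168 CPM, while Ccnd3 in its stretch had 2229 CPM in dividing and 5818 CPM in other nuclei and Usp49 had 2590.1 CPM in dividing and 707 CPM in other nuclei. Ccnd3 was thus lower and Usp49 higher in dividing nuclei, while Tfeb differed little. Nuclei with hypoxia markers had 2223 CPM of Tfeb and those with none 2332 CPM. In cholangiocyte-like nuclei Tfeb was 783 CPM where Asz1 or Tinag was held and 926 CPM where neither was, and in hepatocyte-like nuclei it was 99.3 CPM in pericentral and 97.6 CPM in periportal nuclei.

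Mitf was highest in macrophages. It lies on chromosome 6 (97807052 to 98021349, plus strand, ENSMUSG00000035158). Its level was 830 CPM in macrophage-like nuclei (754 to 912) and 600.2 CPM in Kupffer-like nuclei (531 to 676), and these 2 classes together stood 5.80-fold (5.33 to 6.29) above hepatocyte-like nuclei at 125 CPM (121 to 129). With classes from Leiden clusters in place of gates this fold was 2.06. The Kupffer-like cluster was mixed, since 62 of its 213 gated nuclei were Kupffer-like by gate. It held 9081761 UMIs, against 451491 in the gated Kupffer-like nuclei, and its part in this fold was not tested. Fibroblast-like nuclei at 259 CPM and smooth muscle- or pericyte-like nuclei at 248 CPM followed and did not differ from each other (ratio 1.05, 0.872 to 1.26).

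Pkhd1-high, HCC-like and cholangiocyte-like nuclei held less Mitf than hepatocyte-like nuclei. Pkhd1-high nuclei had 82.2 CPM, a fold of 0.658 over hepatocyte-like nuclei (0.617 to 0.701). HCC-like nuclei had 79.3 CPM, a fold of 0.635 (0.557 to 0.721), and cholangiocyte-like nuclei 81.4 CPM, a fold of 0.652 (0.590 to 0.720). These 3 classes did not differ from each other beyond their intervals. Stellate-like nuclei at 127 CPM did not differ from hepatocyte-like nuclei beyond the interval, nor did mesothelial-like nuclei at 96.6 CPM from them, while T cell-like nuclei had 86.8 CPM and endothelial-like nuclei 78.9 CPM. Free RNA held 52.5 CPM of Mitf. Within Pkhd1-high nuclei Mitf had 116 CPM in the Zfp804a or Hmga2 group and 71.7 CPM in the Kcnj16, Slc8a3 or Grm3 group, a ratio of 1.62 (1.41 to 1.86), and 77.9 CPM with hypoxia markers against 101 CPM with none. In hepatocyte-like nuclei it had 112 CPM in pericentral and 134 CPM in periportal nuclei.

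Tfec had the narrowest pattern. It lies on chromosome 6 (16833373 to 16898441, minus strand, ENSMUSG00000029553). Its level was 244 CPM in Kupffer-like nuclei (200 to 294), 129.8 CPM in macrophage-like nuclei (101 to 165) and 53.6 CPM in endothelial-like nuclei (45.9 to 62.3), each separated from the next. All other classes held 0.880 to 7.67 CPM, at or below free RNA at 7.54 CPM within counting error, with 1.25 CPM in hepatocyte-like nuclei from 31 UMIs. Kupffer-like and macrophage-like nuclei together stood 146-fold (99.6 to 222) above hepatocyte-like nuclei. Tfec rested on 15 UMIs in Pkhd1-high nuclei, 10 in HCC-like nuclei and 10 in cholangiocyte-like nuclei, all below free RNA, and is read as background there.

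The endothelial Tfec signal differed between nuclei with and without sinusoidal markers. The 84 endothelial-like nuclei with sinusoidal markers had 100.4 CPM and the 394 without had 38.5 CPM, a ratio of 2.61 (1.66 to 4.03). The sinusoidal group also carried 1007 CPM of the 15 macrophage markers, 2 of them at 0, against 242 CPM with none at 0 in the other group, and 47.9% free RNA against 29.7%. Tfeb differed between the 2 groups as well, at 322.5 CPM with sinusoidal markers and 117.8 CPM without, a ratio of 2.74 (2.14 to 3.48). The 23 stretch genes summed to 3262 CPM and 1379 CPM, and the 11 Pkhd1-high markers to 606 CPM and 286 CPM. Tfe3 (ratio 0.881, 0.303 to 2.12) and Mitf (1.01, 0.644 to 1.54) did not differ beyond their intervals. With expected free RNA taken out, Tfec was 185.6 CPM with sinusoidal markers and 51.5 CPM without. Tfeb was then 407.7 CPM with these markers and 70.6 CPM without. The part of other cells' RNA in the Tfec and Tfeb differences was not tested. In shares, 21.9% of Kupffer-like nuclei had a Tfec UMI after thinning to 1000 UMIs, 9.25% of macrophage-like, 5.12% of endothelial-like and 0.141% of hepatocyte-like nuclei, and it was seen in 0 of 86 T cell-like nuclei, which allows a share of up to 3.49%. For Mitf these shares were 46.6% of Kupffer-like, 42.2% of macrophage-like, 22.1% of fibroblast-like and 11.1% of hepatocyte-like nuclei.

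Tfe3 was low and nearly even. It lies on chromosome X (7762560 to 7775202, plus strand, ENSMUSG00000000134). It had 46.5 CPM in Kupffer-like nuclei (28.8 to 71.1) and 45.8 CPM in macrophage-like nuclei (29.4 to 68.2), which together stood 2.77-fold (1.99 to 3.78) above hepatocyte-like nuclei at 16.6 CPM (15.1 to 18.3). With classes from Leiden clusters, where the Kupffer-like cluster was the mixed one named above, the Tfe3 fold was 1.501 and no longer past 2-fold. Every other class lay between 15.2 and 25.7 CPM, beside 16.95 CPM in free RNA, and no class differed from its neighbour in the order. Pkhd1-high nuclei had 18.2 CPM, a fold of 1.09 over hepatocyte-like nuclei (0.940 to 1.27), HCC-like nuclei 17.3 CPM, a fold of 1.04 (0.771 to 1.38), and cholangiocyte-like nuclei 18.0 CPM, a fold of 1.08 (0.863 to 1.35).

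Per kb of gene span the balance among members differed by class. In Pkhd1-high nuclei Tfeb had 39.9 CPM per kb, Tfe3 1.44, Mitf 0.383 and Tfec 0.0135. In Kupffer-like and macrophage-like nuclei Tfeb had 5.76 CPM per kb, Tfe3 3.65, Mitf 3.38 and Tfec 2.80. In hepatocyte-like nuclei Tfeb had 1.71 CPM per kb, Tfe3 1.32, Mitf 0.583 and Tfec 0.0191. The 4 genes thus lay close together in Kupffer-like and macrophage-like nuclei, while Tfeb stood far above the others in Pkhd1-high nuclei. The span is only a rough length for nuclear RNA primed at its 3′ end.

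The genes whose log2(CPM + 1) followed each member most closely over the 12 classes were ranked among 10569 genes by Pearson r, as a description of 12 points that share 1 matrix. For Tfeb they included Hkdc1, a hexokinase-family gene (r = 0.987), Med20 of the same stretch (0.978), Gm47223 (0.972) and Ppargc1a, the coactivator PGC-1α (0.971). For Tfe3 they included Lilr4b, a myeloid receptor (0.965). For Tfec the top genes were Entpd1, the ectonucleotidase CD39 (0.948), and Slc30a7, a zinc transporter (0.946). For Mitf they were Ctsc, the protease cathepsin C (0.938), and Unc93b1, a trafficking factor of Toll-like receptors (0.920).

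Genes of the MiT/TFE pathway were then described in 12 lists of 149 genes. In Pkhd1-high over hepatocyte-like nuclei 42 of 142 list genes with at least 20 UMIs over both classes were at least 2-fold higher (29.6%, against 25.3% of all genes) and 5 at least 2-fold lower (3.52%, against 15.7%). Their median log2 fold was 0.49, and that of all genes 0.27. In HCC-like over hepatocyte-like nuclei 32 of 139 were higher and 0 lower (background 23% and 10.1%), and in cholangiocyte-like over hepatocyte-like nuclei 21 of 139 were higher and 3 lower (background 26.5% and 12.3%). The share of list genes that were higher was therefore near the background in Pkhd1-high and HCC-like nuclei and below it in cholangiocyte-like nuclei.

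The lysosomal hydrolases are enzymes that break down material inside the lysosome. In Pkhd1-high over hepatocyte-like nuclei 12 of 23 were at least 2-fold higher (52.2%, background 25.3%) and 0 lower (background 15.7%). Their median log2 fold was 1.03. Gla, alpha-galactosidase A, had 15.4 CPM in Pkhd1-high nuclei and 1.65 CPM in hepatocyte-like nuclei, a fold of 9.32, and Hexa, a beta-hexosaminidase subunit, had 76.6 CPM in Pkhd1-high nuclei and 14.6 CPM in hepatocyte-like nuclei, a fold of 5.26. The lowest were Neu1, a sialidase, at 0.609, and Ctsf, cathepsin F, at 0.584. The cathepsin B gene Ctsb had 388 CPM in Pkhd1-high nuclei and 83.2 CPM in hepatocyte-like nuclei, but free RNA held 622 CPM of it. Ctsd, cathepsin D, had 131 CPM in Pkhd1-high nuclei and 35.7 CPM in hepatocyte-like nuclei, beside 424 CPM in free RNA. The part of free RNA in these folds was not tested gene by gene. In HCC-like nuclei 11 of the 23 hydrolases were at least 2-fold higher (47.8%, background 23%). In cholangiocyte-like nuclei 6 of 23 were, which at 26.1% is near the background of 26.5%.

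Of the lysosomal membrane and proton pump genes 7 of 20 were at least 2-fold higher in Pkhd1-high over hepatocyte-like nuclei (35%, background 25.3%). Only 1 was at least 2-fold lower (5%, background 15.7%), and the median log2 fold was 0.70. Cln3, the membrane protein lost in human juvenile Batten disease, had 51.6 CPM in Pkhd1-high nuclei and 10.5 CPM in hepatocyte-like nuclei, a fold of 4.90, beside 16.2 CPM in free RNA. Atp6v1b2, a pump subunit, had 202 CPM in Pkhd1-high nuclei and 47.3 CPM in hepatocyte-like nuclei, a fold of 4.28. Lamp1, a major membrane glycoprotein, had 221 CPM in Pkhd1-high nuclei and 72.3 CPM in hepatocyte-like nuclei, beside 464 CPM in free RNA. The lowest were Clcn7, a chloride-proton exchanger, at 0.846, and Atp6v0d2, a pump subunit of osteoclasts and macrophages, at 0.192. The same list had 5 of 20 higher in HCC-like nuclei, near the background of 23%, and 3 of 20 in cholangiocyte-like nuclei, below the background of 26.5%.

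Promoters are shown for Gla, Cln3 and Ppargc1a, which lead their lists by fold, and for Tfeb itself. Those of Ctsa, the protective protein cathepsin A, and Lamp1 are shown for their repeated motifs. Windows of list genes were kept only where they held a motif. The windows shown therefore do not say how often genes with high folds carry one. They are RefSeq windows of build GRCm38.p6 from 250 bases before to 50 bases after the annotated start, read 5′ to 3′ on the strand of the gene. Capitals mark matches on either strand of the E-box CACGTG, its extended form TCACGTG, which contains it, the palindrome of GT, the E-box and AC, which contains both, or the M-box core TCATGTG.
Gla promoter, chrX:134600956-134601255, minus strand: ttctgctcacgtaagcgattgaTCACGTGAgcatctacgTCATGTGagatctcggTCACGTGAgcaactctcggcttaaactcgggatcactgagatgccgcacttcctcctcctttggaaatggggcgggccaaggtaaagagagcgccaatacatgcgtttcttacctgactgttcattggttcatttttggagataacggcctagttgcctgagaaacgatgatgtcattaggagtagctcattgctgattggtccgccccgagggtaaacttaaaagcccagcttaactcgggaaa
Ctsa promoter, chr2:164833523-164833822, plus strand: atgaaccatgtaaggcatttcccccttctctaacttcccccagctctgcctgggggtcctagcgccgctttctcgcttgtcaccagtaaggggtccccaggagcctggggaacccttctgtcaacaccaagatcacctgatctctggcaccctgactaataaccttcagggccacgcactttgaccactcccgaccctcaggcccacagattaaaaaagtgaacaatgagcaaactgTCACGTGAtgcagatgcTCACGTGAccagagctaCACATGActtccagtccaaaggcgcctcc
Cln3 promoter, chr7:126583187-126583486, minus strand: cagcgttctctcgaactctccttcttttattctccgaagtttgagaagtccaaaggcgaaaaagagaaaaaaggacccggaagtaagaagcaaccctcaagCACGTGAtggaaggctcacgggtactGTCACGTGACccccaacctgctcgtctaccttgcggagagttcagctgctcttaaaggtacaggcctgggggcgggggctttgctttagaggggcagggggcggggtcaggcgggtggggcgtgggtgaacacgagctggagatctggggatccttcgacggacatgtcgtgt
Lamp1 promoter, chr8:13158911-13159210, plus strand: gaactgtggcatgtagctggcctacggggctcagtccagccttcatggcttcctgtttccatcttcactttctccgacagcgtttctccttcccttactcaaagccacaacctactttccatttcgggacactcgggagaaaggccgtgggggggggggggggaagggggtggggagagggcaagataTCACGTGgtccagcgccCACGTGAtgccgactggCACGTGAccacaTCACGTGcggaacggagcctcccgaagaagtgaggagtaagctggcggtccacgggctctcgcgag
Ppargc1a promoter, chr5:51567676-51567975, minus strand: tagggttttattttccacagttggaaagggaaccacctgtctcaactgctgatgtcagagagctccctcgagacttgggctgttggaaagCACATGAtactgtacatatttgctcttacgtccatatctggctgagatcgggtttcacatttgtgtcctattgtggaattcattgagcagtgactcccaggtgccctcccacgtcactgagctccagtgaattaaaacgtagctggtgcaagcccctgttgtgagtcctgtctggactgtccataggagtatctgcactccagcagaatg
Tfeb promoter, chr17:47736787-47737086, plus strand: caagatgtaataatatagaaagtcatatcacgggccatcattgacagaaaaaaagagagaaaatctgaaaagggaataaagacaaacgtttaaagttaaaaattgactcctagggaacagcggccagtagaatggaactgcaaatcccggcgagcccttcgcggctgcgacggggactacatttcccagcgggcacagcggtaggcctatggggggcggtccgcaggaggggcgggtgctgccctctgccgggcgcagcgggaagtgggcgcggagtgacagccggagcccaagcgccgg

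The E-box stood in 8.09% of 27025 genes with a promoter window, in 8 of 15 matched hydrolase genes (53.3%) and in 8 of 15 matched membrane and pump genes (53.3%). These lists are named for that motif, so the share is no independent sign. The palindrome stood in 0.370% of all genes, and among the genes shown in Cln3. The M-box core stood in 4.31% of all genes and in the windows of Gla, Ctsa and Ppargc1a shown. Rragd, which had the highest fold of the Rag list in Pkhd1-high nuclei, had a window with none of these motifs. None of the 9 windows of Tfeb, Tfe3, Tfec and Mitf held any of these letters, which says only that they are absent from those windows; a match is a description and not a site.

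Autophagy genes were nearly even in Pkhd1-high over hepatocyte-like nuclei, with a median log2 fold of 0.07. Of 17 genes 2 were at least 2-fold higher, which at 11.8% is below the background of 25.3%, and 1 was lower. Sqstm1, the autophagy receptor p62, had a fold of 2.01. Atg9b, a lipid scramblase of the autophagy machinery, had a fold of 8.39, from 1.35 CPM in Pkhd1-high nuclei and 0.161 CPM in hepatocyte-like nuclei. Atg9b rested on 23 UMIs in Pkhd1-high nuclei and had enough UMIs to be counted only by being higher. Among autophagy genes with at least 100 UMIs over both classes, 1 of 16 was at least 2-fold higher, beside 21.6% of all such genes. The lowest were Uvrag, a regulator of the class III PI3-kinase, at 0.616, and Ulk1, the kinase that starts autophagy, at 0.415.

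The metabolic and feedback targets held the 2 highest folds outside the pigment list. Ppargc1a had 1797 CPM in Pkhd1-high nuclei, 1387 CPM in HCC-like and 653 CPM in cholangiocyte-like nuclei, against 125 CPM in hepatocyte-like nuclei, while free RNA held 292 CPM. Its fold was 14.4 (13.8 to 14.9) in Pkhd1-high, 11.1 in HCC-like and 5.22 in cholangiocyte-like nuclei. Rragd, the Rag GTPase RagD, had 57.7 CPM in Pkhd1-high nuclei, 91.7 CPM in HCC-like and 118 CPM in cholangiocyte-like nuclei, against 4.14 CPM in hepatocyte-like nuclei, while free RNA held 32.3 CPM. The Rragd fold was 13.9 (11.4 to 17.2) in Pkhd1-high, 22.1 (17.6 to 28.0) in HCC-like and 28.6 (23.2 to 35.6) in cholangiocyte-like nuclei. Rragd thus ran opposite to Tfeb among these 3 classes, while Ppargc1a ran in the order of Tfeb.

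In this list 7 of 11 genes were at least 2-fold higher in Pkhd1-high over hepatocyte-like nuclei (63.6%, background 25.3%). Among them were Hif1a, the hypoxia-inducible factor subunit, at 4.53, and Fnip1, a partner of folliculin, at 2.42. Flcn, folliculin, had 1.48 and Ppara, the nuclear receptor of fatty acid oxidation, 0.369.

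Lists of genes that control MiT/TFE proteins are read against the 25.3% of all genes that were at least 2-fold higher in Pkhd1-high nuclei. Of the Rag, Ragulator and FLCN-FNIP genes 3 of 12 were at least 2-fold higher in Pkhd1-high over hepatocyte-like nuclei, namely Rragd, Fnip1 and Fnip2, and the lowest were Lamtor2, a Ragulator subunit, at 0.930, and Rraga, RagA, at 0.877. Of the mTORC1 and TSC genes 0 of 9 were higher and 1 lower, from Tsc2, a brake on mTORC1, at 1.25 to Mtor at 0.523 and Deptor, an mTOR inhibitor, at 0.298. Of the 11 GATOR genes, the amino acid branch of mTORC1 control, 0 were at least 2-fold higher or lower, from Depdc5 at 1.65 to Kptn at 0.581. Of the kinases 3 of 13 were higher, led by Mapk3, the kinase ERK1, at 3.29 and Cdk4 at 2.16, with Prkaa2, a catalytic subunit of AMPK, lowest at 0.557. Of the calcineurin, 14-3-3 and related genes 4 of 13 were higher, all of them 14-3-3 genes, led by Ywhaq at 2.57 and Ywhab at 2.30, while Ppp3ca, the calcineurin catalytic subunit, had 0.956. The Rag list at 25%, the kinases at 23.1% and the calcineurin and 14-3-3 list at 30.8% lay near that background, and the mTORC1 and GATOR lists below it.

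**Figure D4:**
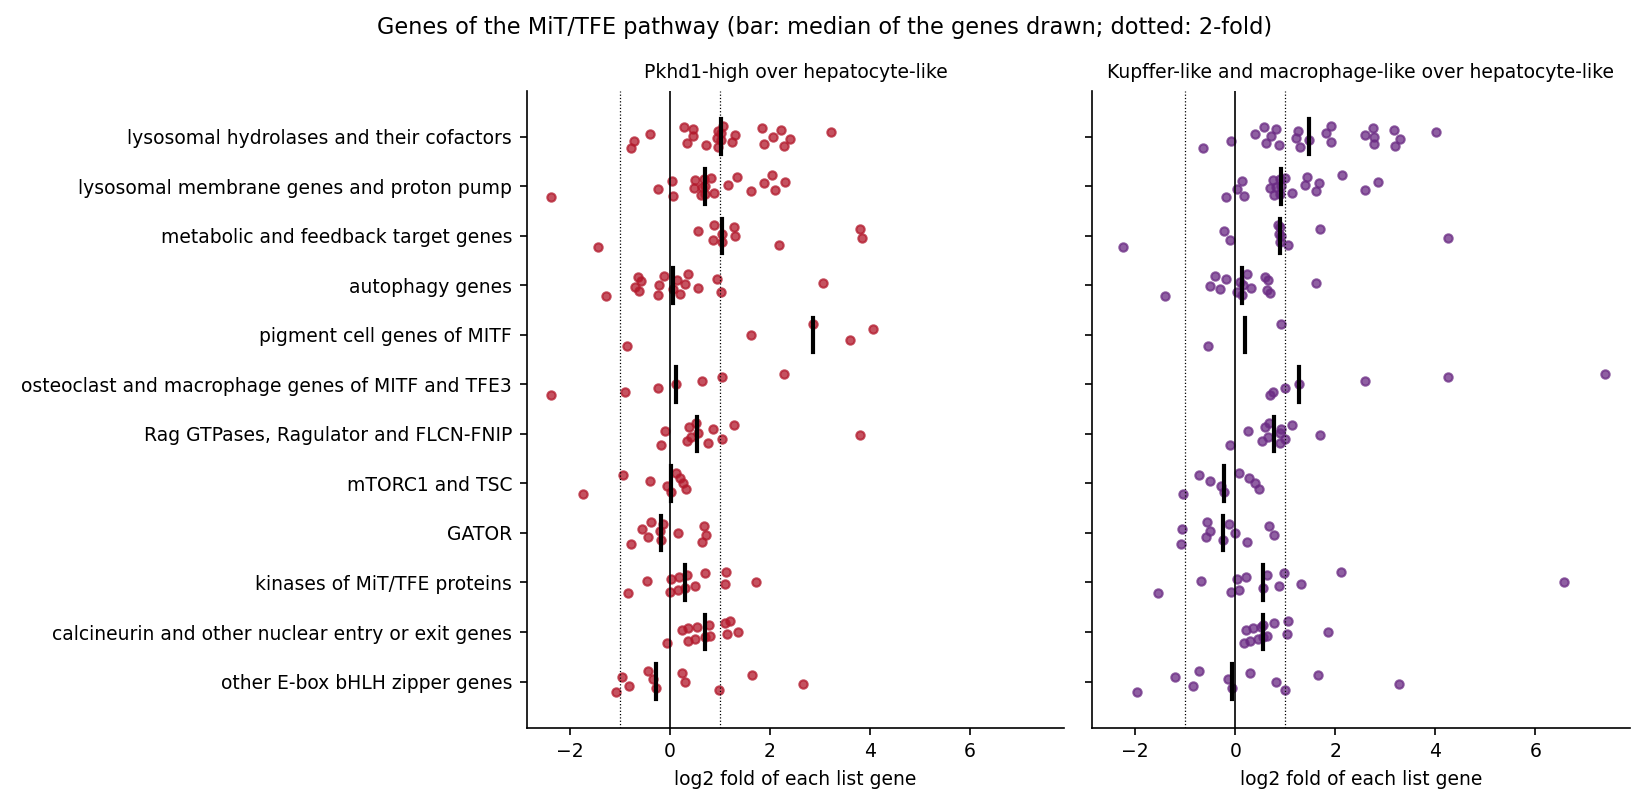
Log2 fold of each gene of the 12 pathway lists over hepatocyte-like nuclei, in Pkhd1-high nuclei (left) and in Kupffer-like and macrophage-like nuclei (right), for genes with at least 20 UMIs over both classes. Black bars are medians of the genes drawn and dotted lines mark 2-fold. The hydrolases have 12 of 23 genes at least 2-fold higher in Pkhd1-high nuclei, beside 25.3% of all genes. They have 15 of 23 in Kupffer-like and macrophage-like nuclei, beside 25.1% of all genes.

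The pigment cell list had few genes with enough UMIs, 5 of 9. Of these 4 were at least 2-fold higher in Pkhd1-high over hepatocyte-like nuclei (background 25.3%), and Gpr143 among them reached 20 UMIs only by being higher. Mlana, a melanosome protein gene, had 137 UMIs (8.04 CPM) in Pkhd1-high nuclei, against 12 UMIs (0.482 CPM) in hepatocyte-like nuclei, a fold of 16.7 (9.23 to 33.0), while free RNA held 1.46 CPM. Gpr143, a melanosome receptor gene, had a fold of 12.0 from 33 and 4 UMIs. The lowest were Pmel, a melanosome matrix gene, at 3.08, with 3.34 CPM in Pkhd1-high nuclei and 3.84 CPM in free RNA, and Dct, a melanin synthesis enzyme, at 0.552 from 14 and 37 UMIs. The defining pigment enzymes were nearly absent, with 0 UMIs of Tyr and 1 UMI of Tyrp1 in Pkhd1-high nuclei, and no nucleus met the melanocyte gate. In HCC-like nuclei Mlana had 4 UMIs, or 1.23 CPM.

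Of the osteoclast and macrophage list 2 of 7 were at least 2-fold higher in Pkhd1-high over hepatocyte-like nuclei and 1 lower. At 28.6% the higher share is near the background of 25.3%. The 2 genes were Tnfrsf11a, the receptor RANK, at 4.83 and Gpnmb, a lysosomal glycoprotein gene, at 2.04. Pkhd1-high nuclei had 5.04 CPM of Tnfrsf11a and 4.93 CPM of Gpnmb, below free RNA at 5.36 CPM of Tnfrsf11a and 16.4 CPM of Gpnmb. Of the other E-box proteins 2 of 11 were higher, which at 18.2% is below the background. They were Myc at 6.32 and Mlxip, a glucose-responsive factor, at 3.12. The lowest were Usf3 at 0.517 and Srebf1, a factor of lipid synthesis, at 0.472. The macrophage markers summed to 107 CPM in Pkhd1-high nuclei and 86.2 CPM in hepatocyte-like nuclei, against 674 CPM in free RNA, with none at 0 in either class.

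In Kupffer-like and macrophage-like nuclei, where Tfe3, Tfec and Mitf led, 38 of 139 list genes were at least 2-fold higher than in hepatocyte-like nuclei (27.3%, background 25.1%) and 8 lower (5.76%, background 14.3%). The hydrolases had 15 of 23 higher with a median log2 fold of 1.47, among them Psap, the saposin precursor, at 9.79. Among the membrane and pump genes 8 of 20 were higher, led by Cln3 at 7.20 and Atp6v0d2 at 6.03. Cln3 had 73.1 CPM in Kupffer-like and 78.3 CPM in macrophage-like nuclei. Atp6v0d2 had 19.9 CPM in Kupffer-like and 164 CPM in macrophage-like nuclei, against 16.2 CPM in hepatocyte-like nuclei. The osteoclast and macrophage list had 4 of 7 higher, led by Tnfrsf11a at 169 (111 to 266) and Gpnmb at 19.1. Tnfrsf11a had 157 CPM in Kupffer-like and 193 CPM in macrophage-like nuclei. Gpnmb had 80.2 CPM in macrophage-like nuclei but 6.64 CPM in Kupffer-like nuclei, below free RNA at 16.4 CPM. Among the lowest there were Ppara at 0.210, Mlxipl, the glucose sensor ChREBP, at 0.254, Prkaa2 at 0.341 and Ulk1 at 0.376.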

How the data were processed

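Single-nucleus RNA libraries (10x Next GEM v3.1, 3′) of 2 samples of 1 group were deposited as pooled matrices of raw UMI counts, made by the authors with Cell Ranger 5.0 on mm10, per the submitters' processing notes; the header of the unfiltered matrix names Cell Ranger 4. Whether introns were counted is not stated in these sources. From the deposited counts, barcodes with over 5% mitochondrial UMIs, under 500 UMIs or under 300 genes were left out (758), no doublet caller was applied, and nuclei were gated by markers. A marker was held at a one-sided Poisson p under 0.05 over free RNA; 3 markers of a set made a gate, and for hepatocyte-like nuclei 3 of the general, pericentral or periportal set, a departure made after the data were seen. Nuclei of no gate (8431), of several lineages (522) or with tied gates (118) were left out, as were classes under 50 nuclei. UMIs were summed per class, and folds are ratios of CPM with exact conditional binomial intervals for counts of at least 20 UMIs over both classes; no test was made. Gene positions came from GENCODE M21 and promoters from RefSeq (Python 3.11.15, numpy 2.4.6, scipy 1.17.1, pandas 2.3.3, scanpy 1.11.5, leidenalg 0.10.2). The fold and gate code was tested on simulated data. The members, marker sets and lists were chosen with earlier results of these data known. The text names the 2 highest and 2 lowest genes of a list, and the 5 most alike genes or the leading ones of them; genes of the chromosome 17 stretch and its flanks, Ctsa, Ctsb, Ctsd, Lamp1, Hif1a, Fnip1, Fnip2 and the extra low genes of the last paragraph were chosen after their values were seen. Some genes that this rule names are not reported here. Alternatives were other filters, gates, Leiden clusters, Scrublet calls, thinning depths and removal of expected free RNA.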

Additional observations from a re-analysis of the deposited data

Results flagged for a closer look

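Nuclei outside the 12 classes held RNA of some MiT/TFE genes above the level in free RNA droplets of 500 to under 850 UMIs. The 8431 nuclei of no gate, with a median of 1306 UMIs, had 529 CPM of Tfeb (interval 519 to 538) and 136 CPM of Mitf (131 to 141), against 229.7 CPM of Tfeb and 52.5 CPM of Mitf in free RNA. The 522 nuclei that met gates of several lineages had 785 CPM of Tfeb (765 to 804), 22.5 CPM of Tfe3 (19.3 to 26.0), 36.8 CPM of Tfec (32.7 to 41.3) and 186 CPM of Mitf (177 to 196), against 16.95 CPM of Tfe3 and 7.54 CPM of Tfec in free RNA. Nuclei of no gate had 18.1 CPM of Tfe3 (16.4 to 19.9) and 8.37 CPM of Tfec (7.21 to 9.65), not above free RNA beyond the intervals. Against barcodes of 1 to 100 UMIs, where free RNA held 487 CPM of Tfeb and 23.9 CPM of Tfe3, Tfe3 in nuclei of several lineages was not higher and Tfeb in nuclei of no gate was 529 CPM. The 118 nuclei with tied gates had 2026 CPM of Tfeb (1946 to 2109) and 116 CPM of Mitf (97.6 to 137). Their 18.7 CPM of Tfe3 (11.7 to 28.3) and 3.40 CPM of Tfec (0.925 to 8.69) were not above free RNA beyond the intervals. All these sets are mixed, and none entered a main comparison.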

How the results depend on the processing

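No paired analysis was possible because the 2 samples share 1 group and no barcode is tied to a sample. Tfeb stayed at least 2-fold above hepatocyte-like nuclei under all 10 alternatives in each comparison, not counting Scrublet on all nuclei, which called none. The settings were at most 1% mitochondrial UMIs, 4 markers, nuclei of several lineages kept, Leiden clusters, the general hepatocyte markers alone, Scrublet calls among nuclei of at least 2000 UMIs left out, and expected free RNA taken out. Leiden clusters took the name of their leading gate where at least 25% of their nuclei were gated, a limit set after the data were seen. The Kupffer-like cluster was mixed, with 452 nuclei, 213 of them gated and 62 Kupffer-like by gate. It held 9081761 UMIs, against 451491 in the gated Kupffer-like nuclei. In Pkhd1-high nuclei the Tfeb fold was 24.98 at 1% mitochondrial UMIs, 20.8 with 4 markers, 21.3 with several lineages kept, 34.6 with Leiden clusters, 31.2 with the general markers, 28.7 without Scrublet calls and 30.9 with free RNA out. In HCC-like nuclei it was 15.1 at 1% mitochondrial UMIs, 10.9 with 4 markers, 12.2 with several lineages kept, 12.5 with Leiden clusters, 17.6 with the general markers, 16.0 without Scrublet calls, 18.0 with free RNA out and 11.6 without Ccnd3 in the gate. In cholangiocyte-like nuclei it was 10.3 at 1% mitochondrial UMIs, 8.04 with 4 markers, 8.50 with several lineages kept, 12.0 with the general markers, 11.1 without Scrublet calls and 12.6 with free RNA out. In pooled Kupffer-like and macrophage-like nuclei it was 4.85 at 1% mitochondrial UMIs, 4.02 with several lineages kept, 8.50 with Leiden clusters, 3.94 with the general markers, 3.99 without Scrublet calls and 4.56 with free RNA out. There the Tfe3 fold was 1.501 with Leiden clusters and 3.88 with free RNA taken out, the Tfec fold 96.9 with several lineages kept, 90.5 with Leiden clusters and 448 with free RNA taken out, and the Mitf fold 6.53 at 1% mitochondrial UMIs, 4.04 with several lineages kept, 2.06 with Leiden clusters, 4.93 with the general hepatocyte markers and 8.69 with free RNA taken out. The causes were not tested. The Tfec fold in HCC-like nuclei ranged from 1.56 to 3.47, and with free RNA taken out no positive Tfec level was left in Pkhd1-high nuclei. The Mitf folds below 1 in the 3 epithelial classes ranged from 0.509 to 0.706 and stayed below 1 under all 10.

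In barcodes of 1 to 100 UMIs, free RNA held 487 CPM of Tfeb, 23.9 of Tfe3, 11.03 of Tfec and 73.8 of Mitf. Averaged over single nuclei, levels were 2149.7 CPM for Tfeb in Pkhd1-high, 72.0 CPM for Tfe3 in Kupffer-like and 697 CPM for Mitf in macrophage-like nuclei. Thinning to 2000 or 500 UMIs moves shares by construction, to 94.5% and 59.0% for Tfeb in Pkhd1-high nuclei, 45.9% and 6.76% for Tfec and 59.0% and 32.4% for Mitf in Kupffer-like nuclei. At 1.5-fold the list counts became 64 higher and 17 lower for Pkhd1-high, 8 lower for HCC-like, 43 higher and 16 lower for cholangiocyte-like and 73 higher and 13 lower for pooled Kupffer-like and macrophage-like nuclei. With free RNA taken out, 10 were lower in Pkhd1-high, 2 in HCC-like and 7 in cholangiocyte-like nuclei, and 58 were higher in pooled Kupffer-like and macrophage-like nuclei. The shares of all genes at 1.5-fold and with free RNA taken out were not computed. These list counts therefore have no background and say nothing about the lists in particular. Scrublet called 0 of 16411 nuclei and so did not work. Limited to 9632 deeper nuclei it called 323. The 2 macrophage classes hold 256 nuclei, so their intervals are wide; the number of animals behind a value is unknown.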
